A study of Homo sapiens with 36 samples.

Results

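The genes described here are 10 members of the interleukin-1 and interleukin-6 cytokine families, chosen by symbol. On the IL-1 side they are the ligand genes IL1A, IL1B, IL18 and IL33, the antagonist gene IL1RN and the receptor subunit gene IL1RAP. On the IL-6 side they are the ligand genes LIF, IL6 and IL11 and the receptor subunit gene IL6ST. Of these, 9 passed a filter on low counts, as did 14988 of the 29744 genes measured, and IL6 did not. RNA was sequenced from BxPC-3, an established human pancreatic adenocarcinoma line of wild-type genotype per the labels, in 12 groups of 3 libraries. Cells received vehicle (DMSO) or 1 of 5 compounds at 3 µM for 2 or 4 h. The compounds were JQ1, MS78, TRAP1, TRAP-1-NegP and TRAP-1-NegB. JQ1 blocks the bromodomains of BET proteins, which bind acetylated chromatin. TRAP1 is here the name of a compound and not of the gene with that symbol, and the series title presents the other compounds as its controls. What the endings NegB and NegP stand for is not given in the labels, nor is the target of MS78. All 12 groups share the line, the medium and the serum. Replicates are numbered but not described as separate cultures, so p-values measure only the spread between these libraries, which may be technical.

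Interleukin-1α and interleukin-1β bind the same receptor, which signals with the co-receptor encoded by IL1RAP through MYD88 and IRAK kinases to NF-κB and MAP kinases. The product of IL1RN occupies that receptor without signalling. LIF, interleukin-6 and interleukin-11 signal through receptor complexes that share gp130, the product of IL6ST, and act largely through JAK kinases and STAT3. In pancreatic cancer, IL-1 from tumour cells is known to act on neighbouring fibroblasts, and LIF is known as a signal between fibroblasts and tumour cells.

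Libraries held 15288688 to 26608325 estimated counts. A pair of libraries stood apart from the others of their groups. TRAP1 replicate 1 at 4 h had 1287 tested genes at 0, against 929 and 503 in the other libraries of its group. MS78 replicate 1 at 2 h differed from the others of its group by a median absolute log2 difference of 0.334. Epithelial markers were present, as the label of the line has it: all 7 (KRT7, KRT8, KRT18, KRT19, EPCAM, CDH1 and MUC1) were above 0 in all 36 libraries, and their summed level ran from 8764 to 11616 TPM (a level per transcript length and library total). Markers of blood cells, which are known sources of IL-1, summed to 21.5 to 31.8 TPM over 7 genes. CD68, which other cell types also express, made up most of that sum (17.5 to 27.6 TPM), while the pan-leukocyte gene PTPRC had a median of 0 and a highest value of 0.0419 TPM. Fibroblast markers summed to 1.12 to 2.91 TPM and endothelial markers to 0.849 to 3.62 TPM. In bulk RNA, fewer cells expressing a gene and less RNA per cell cannot be told apart.

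The 3 genes IL1A, IL1B and IL1RN lie in 1 cluster on chromosome 2, at chr2:112773925-112784493, chr2:112829751-112836779 and chr2:113099360-113134014 (GRCh38.p14). IL1A and IL1B are 45257 bases apart and both lie on the minus strand, and 262580 bases separate IL1B from IL1RN on the plus strand. The 250 bases before the start site are printed for the members whose RNA moved most clearly with treatment. They were taken from RefSeq (GRCh38.p14), which had entries for 8 of the 10 members; LIF and IL18 had none. IL1A and IL1RN had several entries. The IL1A stretch shown lies before the more downstream of 2 start sites and overlaps the end of the gene coordinates given above, and the IL1RN stretch lies before the most upstream of its entries. Capitals mark matches, on either strand, to AP-1 (TGANTCA), the TATA box (TATAAA), the cAMP response element (TGACGTCA) or the NF-κB consensus. The stretches are chr2:112784401-112784650 (minus strand) for IL1A, chr2:112836780-112837029 (minus) for IL1B, chr2:113117721-113117970 (plus) for IL1RN, chr19:55370464-55370713 (minus) for IL11, chr3:190513835-190514084 (plus) for IL1RAP and chr5:55994964-55995213 (minus) for IL6ST. Each is written 5′ to 3′ on the strand of its gene.
IL1A: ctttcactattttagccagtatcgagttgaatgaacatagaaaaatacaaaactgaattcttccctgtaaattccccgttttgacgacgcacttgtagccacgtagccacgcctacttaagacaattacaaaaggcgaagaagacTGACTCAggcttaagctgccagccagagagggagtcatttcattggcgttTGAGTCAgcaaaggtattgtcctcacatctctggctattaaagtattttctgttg
IL1B: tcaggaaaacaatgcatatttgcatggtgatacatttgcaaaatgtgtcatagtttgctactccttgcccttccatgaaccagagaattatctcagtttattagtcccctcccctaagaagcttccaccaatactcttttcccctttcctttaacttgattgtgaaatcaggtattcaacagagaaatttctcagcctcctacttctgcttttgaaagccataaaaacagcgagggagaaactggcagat
IL1RN: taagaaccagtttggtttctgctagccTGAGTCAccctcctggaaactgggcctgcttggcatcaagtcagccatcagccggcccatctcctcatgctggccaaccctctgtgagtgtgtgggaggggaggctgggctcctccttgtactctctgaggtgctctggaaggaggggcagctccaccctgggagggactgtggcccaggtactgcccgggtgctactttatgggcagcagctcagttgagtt
IL11: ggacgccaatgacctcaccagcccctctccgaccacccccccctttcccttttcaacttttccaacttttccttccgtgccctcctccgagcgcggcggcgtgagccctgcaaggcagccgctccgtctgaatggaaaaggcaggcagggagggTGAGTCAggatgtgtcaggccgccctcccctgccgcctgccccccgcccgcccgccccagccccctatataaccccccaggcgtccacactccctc
IL1RAP: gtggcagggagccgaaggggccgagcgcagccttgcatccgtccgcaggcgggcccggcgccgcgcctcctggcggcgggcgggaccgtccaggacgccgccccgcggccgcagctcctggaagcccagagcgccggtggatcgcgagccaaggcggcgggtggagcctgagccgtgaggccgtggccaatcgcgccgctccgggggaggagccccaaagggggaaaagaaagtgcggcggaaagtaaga
IL6ST: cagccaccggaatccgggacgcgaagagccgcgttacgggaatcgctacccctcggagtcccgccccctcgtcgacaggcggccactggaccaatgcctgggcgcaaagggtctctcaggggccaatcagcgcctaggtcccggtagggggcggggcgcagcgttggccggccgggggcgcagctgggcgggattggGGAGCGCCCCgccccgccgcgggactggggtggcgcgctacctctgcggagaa

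The stretch of IL1A holds 2 AP-1 matches, and those of IL1RN and IL11 hold 1 each. The other IL1A entry (chr2:112784494-112784743), not printed, holds 1 AP-1 match and 1 TATA box match and has a GC content of 37.6%. AP-1 matches occur in 6.57% of all 35116 promoter stretches of the same length. The stretch of IL6ST holds 1 NF-κB match, as do 9.96% of all promoters. IL1B and IL1RAP hold none of the 4 motifs in these windows (TATA box in 10.7% and cAMP response element in 1.65% of all promoters). GC content differed among the 6 stretches printed: it is 42.0% for IL1A and 40.0% for IL1B, 59.6% for IL1RN and 67.2% for IL11. It is 74.8% for IL1RAP and 73.6% for IL6ST, with a median of 58.0% over all promoters. The IL1RN values depend on the entry. Its other entries, not printed, have a GC content of 42.0% and 48.4% and no AP-1 match, and the latter holds 2 TATA box matches. A match is a description of letters, not evidence of a bound factor.

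BxPC-3 cells given DMSO for 2 h expressed every member that passed the filter, over a wide range of levels. IL18, whose product is a caspase-1 substrate and induces interferon-γ, stood highest at 84.4 ± 2.69 TPM (mean ± SD, n = 3). IL1RN (57.0 ± 5.26 TPM) and IL1B (56.6 ± 1.22 TPM) followed at levels that did not differ beyond their spread. IL1A was next at 41.1 ± 2.33 TPM. The receptor subunits were lower, with IL6ST at 15.7 ± 0.459 TPM and IL1RAP at 13.9 ± 0.557 TPM. LIF stood at 4.67 ± 0.355 TPM, and IL11 (1.44 ± 0.472 TPM) and IL33 (1.05 ± 0.128 TPM) were the lowest and did not differ beyond their spread. IL6 was hardly detected: it had a count above 0 in 12 of 36 libraries, its largest count was 11, and only 1 library reached 10 counts. Among receptors for these ligands, the IL-1 receptor gene IL1R1 stood at 0.910 ± 0.287 TPM, the IL-33 receptor gene IL1RL1 at 163 ± 2.23 TPM, the LIF receptor gene LIFR at 3.11 ± 0.452 TPM and the IL-6 receptor gene IL6R at 10.00 ± 0.227 TPM. Across the 12 groups, group means of IL1B and LIF spanned 12.1-fold and 12-fold in TPM, those of IL1RN 3.24-fold and those of IL18 1.54-fold.

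The vehicle groups themselves changed between 2 and 4 h. With DMSO, 5 of the 9 tested members were called, beside 20.8% of all genes. A gene is called where edgeR's quasi-likelihood test gave a Benjamini-Hochberg adjusted p below 0.05 over all 14988 genes, and changes are given as log2 fold changes ± SE. IL18 rose (0.28 ± 0.099, adjusted p = 0.0341), while IL1A fell (-0.44 ± 0.096, adjusted p = 0.000482), IL1B fell (-0.29 ± 0.099, adjusted p = 0.0283), IL1RAP fell (-0.57 ± 0.12, adjusted p = 0.000277) and IL6ST fell (-0.51 ± 0.12, adjusted p = 0.00201). The call of IL18 was lost without any 1 library other than DMSO 4 h replicate 2, and that of IL1B without replicate 2 or 3 of either time. Without DMSO 2 h replicate 3, IL18 stood at 0.24 (adjusted p = 0.161), and without DMSO 4 h replicate 2, IL1B stood at -0.28 (adjusted p = 0.0907). Each compound is therefore compared with the DMSO group of its own time, and all compounds at 1 time share the same 3 DMSO libraries.

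Against those vehicle groups IL1B and LIF rose with TRAP-1-NegB and MS78 and fell with JQ1 and TRAP-1-NegP, at both times. TRAP1 belonged to neither pattern: IL1B fell at 2 h and rose at 4 h, and LIF fell at 2 h and was not called at 4 h. With TRAP1, 3 of 9 tested members were called at 2 h, beside 30.1% of all genes, and 6 at 4 h, beside 46.7%. With TRAP-1-NegB, 4 members were called at 2 h, beside 10.9% of all genes, and 4 at 4 h, beside 1.03%, and all of these calls were rises. TRAP-1-NegP gave 5 calls at 2 h (1 rise, 4 falls), beside 30.3%, and 7 at 4 h (3 rises, 4 falls), beside 37.4%. JQ1 gave 4 calls at 2 h, all falls, beside 28.8%, and 8 at 4 h (3 rises, 5 falls), beside 48.9%. MS78 gave 4 calls at 2 h (2 rises, 2 falls), beside 15.9%, and 3 at 4 h, all rises, beside 15.3%. The share of members called lay furthest from the share of all genes with TRAP-1-NegB at 4 h, and 3 of those 4 calls were lost without single libraries, as given with each gene.

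**Figure D1:**
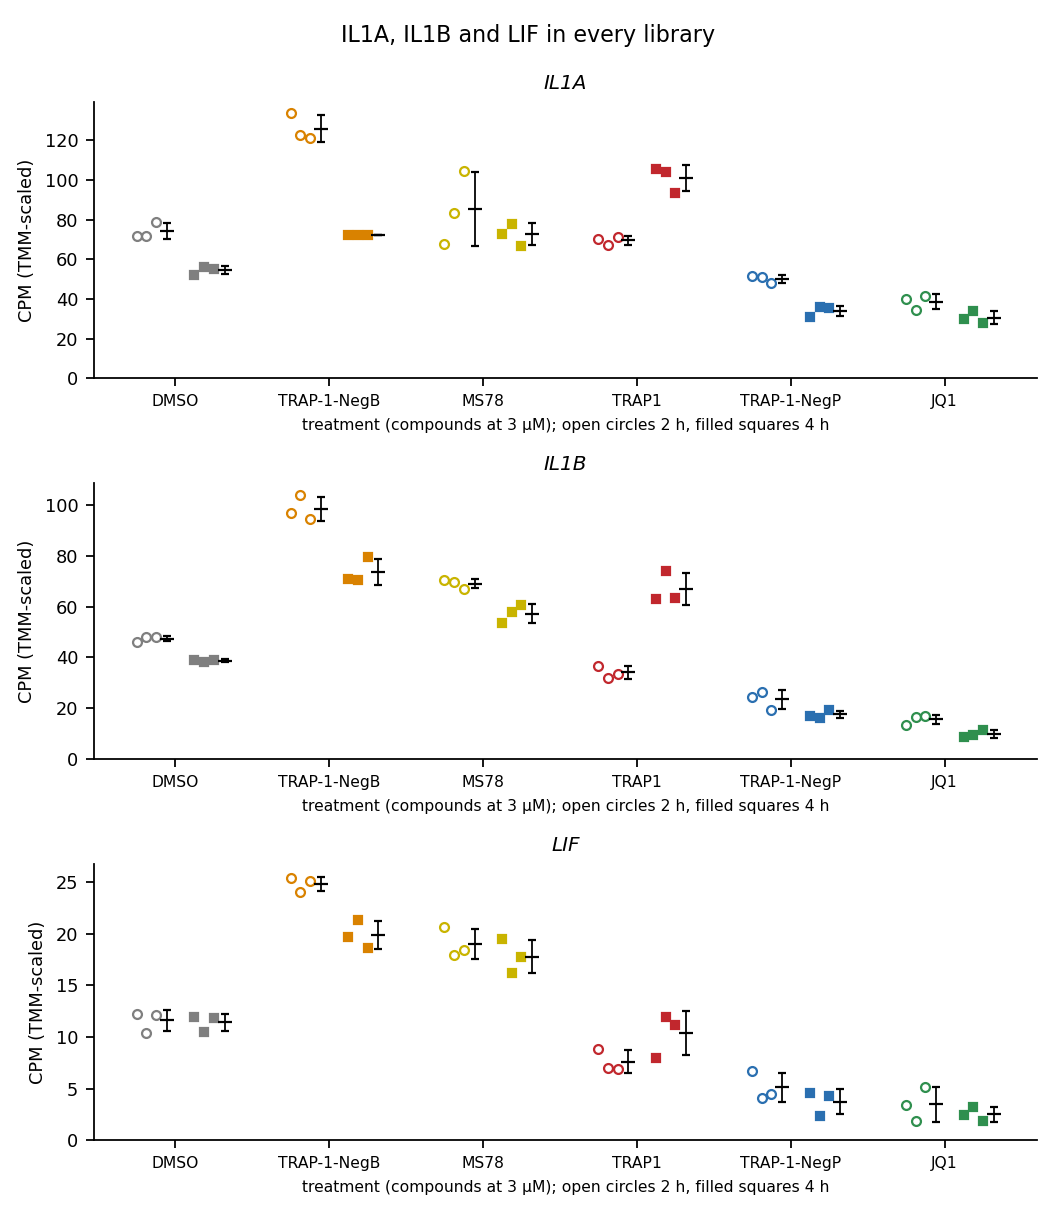
CPM (counts per library total scaled by TMM factors) of IL1A, IL1B and LIF in each of the 36 libraries, by treatment and time. Open circles are 2 h, filled squares 4 h, and bars group means ± SD. TRAP-1-NegB and MS78 libraries of IL1B and LIF sit above the DMSO libraries of their time, and JQ1 and TRAP-1-NegP libraries sit below them.

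IL1B, the gene of interleukin-1β, which is made as a precursor and cleaved by caspase-1, moved with every compound at both times. With DMSO its libraries stood at 46.2, 47.9 and 47.9 CPM at 2 h and at 39.1, 38.0 and 38.9 CPM at 4 h. With JQ1 they stood at 13.6, 16.5 and 17.0 CPM at 2 h and 8.70, 9.70 and 11.6 CPM at 4 h. With TRAP-1-NegP they stood at 24.5, 26.6 and 19.5 CPM at 2 h and 17.2, 16.4 and 19.3 CPM at 4 h. All JQ1 and TRAP-1-NegP libraries were below all DMSO libraries of their time. JQ1 lowered IL1B 3.01-fold at 2 h (-1.59 ± 0.11, adjusted p = 3.03e-18) and 3.86-fold at 4 h (-1.95 ± 0.11, adjusted p = 1.49e-21). TRAP-1-NegP lowered it 2.02-fold at 2 h (-1.01 ± 0.10, adjusted p = 1.27e-11) and by a similar amount at 4 h (log2 fold change -1.14).

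TRAP-1-NegB and MS78 moved IL1B the other way. TRAP-1-NegB libraries held 96.8, 104 and 94.4 CPM at 2 h and 70.7, 70.2 and 79.4 CPM at 4 h. MS78 libraries held 70.3, 69.7 and 67.0 CPM at 2 h and 53.4, 57.9 and 60.5 CPM at 4 h. None of these overlapped the DMSO libraries of their time. The rise was 2.08-fold with TRAP-1-NegB at 2 h (1.05 ± 0.098, adjusted p = 3.93e-12) and 1.90-fold at 4 h (0.93 ± 0.099, adjusted p = 1.04e-09). With MS78 it was 1.46-fold at 2 h (0.54 ± 0.098, adjusted p = 4.49e-05) and 1.48-fold at 4 h (0.57 ± 0.099, adjusted p = 3.89e-05).

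TRAP1 changed the direction of IL1B between the times. Its libraries stood at 36.8, 31.9 and 33.7 CPM at 2 h, all below the DMSO libraries, and at 63.0, 74.0 and 63.5 CPM at 4 h, all above them. The fall at 2 h was 1.39-fold (-0.47 ± 0.10, adjusted p = 0.000166) and the rise at 4 h 1.73-fold (0.79 ± 0.099, adjusted p = 1.55e-09). Without TRAP1 replicate 1, which stood apart at 4 h, the rise was 0.83 on the log2 scale (adjusted p = 4.52e-09). Ordered by group mean, IL1B ran from TRAP-1-NegB at 2 h, through TRAP-1-NegB at 4 h, MS78 at 2 h and TRAP1 at 4 h, to MS78 at 4 h, DMSO at 2 h, DMSO at 4 h, TRAP1 at 2 h, TRAP-1-NegP at 2 h, TRAP-1-NegP at 4 h, JQ1 at 2 h and JQ1 at 4 h. Libraries of neighbours overlapped between TRAP-1-NegB at 4 h and MS78 at 2 h, and between MS78 at 2 h and TRAP1 at 4 h. They also did between TRAP-1-NegP at 4 h and JQ1 at 2 h. That order is of CPM. In TPM, TRAP1 at 4 h (56.7 ± 5.55) stood below MS78 at 4 h (69.1 ± 4.16).

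IL1A encodes interleukin-1α, whose precursor is active without cleavage and can act as an alarmin when cells die. Its DMSO libraries stood at 71.8, 71.8 and 78.8 CPM at 2 h and 52.1, 56.2 and 55.3 CPM at 4 h. JQ1 libraries held 39.8, 34.6 and 41.7 CPM at 2 h and 29.7, 34.2 and 28.0 CPM at 4 h, and TRAP-1-NegP libraries 51.8, 51.0 and 47.8 CPM at 2 h and 31.0, 35.8 and 35.3 CPM at 4 h. Every one of these lay below the DMSO libraries of its time. IL1A fell 1.92-fold with JQ1 at 2 h (-0.94 ± 0.097, adjusted p = 2.08e-11) and 1.78-fold at 4 h (-0.83 ± 0.10, adjusted p = 4.03e-10). With TRAP-1-NegP it fell 1.48-fold at 2 h (-0.56 ± 0.097, adjusted p = 5.24e-06) and 1.60-fold at 4 h (-0.68 ± 0.099, adjusted p = 1.14e-07). Of the 2 IL-1 agonist genes, IL1A had the smaller fold change with JQ1 and TRAP-1-NegP at both times; that contrast between genes was not tested.

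With TRAP-1-NegB, IL1A reached its highest values, 134, 123 and 121 CPM, at 2 h, and 72.5, 72.3 and 72.3 CPM at 4 h. It rose 1.70-fold at 2 h (0.76 ± 0.094, adjusted p = 1.87e-08) and 1.33-fold at 4 h (0.41 ± 0.096, adjusted p = 0.0134). The 4 h call was lost without any 1 library other than DMSO replicate 2, with its lowest value without DMSO replicate 1 (0.38, adjusted p = 0.0823). MS78 libraries were spread at 2 h, at 67.7, 83.5 and 105 CPM, and overlapped the DMSO libraries. The difference there was 0.20 ± 0.095, adjusted p = 0.157, and without replicate 1, which stood apart, it was 0.34 (adjusted p = 0.00347). At 4 h the MS78 libraries held 72.9, 78.1 and 66.9 CPM, all above DMSO, and IL1A rose 1.33-fold (0.41 ± 0.096, adjusted p = 0.00158).

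TRAP1 libraries held 70.4, 67.1 and 71.4 CPM of IL1A at 2 h, just under the DMSO libraries, and 105, 104 and 93.6 CPM at 4 h, well above them. The difference at 2 h was not called (-0.090 ± 0.095, adjusted p = 0.545), with a 95% interval of -0.28 to 0.10. At 4 h IL1A rose 1.85-fold (0.89 ± 0.096, adjusted p = 1.89e-11). Among the 12 groups, only TRAP-1-NegB at 2 h had a higher mean CPM of IL1A than TRAP1 at 4 h, whose libraries overlapped those of MS78 at 2 h. That rank depended on the measure. In TPM, which has no TMM scaling, TRAP1 at 4 h stood at 39.7 ± 3.34, still above DMSO at 4 h (27.3 ± 0.287). TRAP-1-NegB at 2 h (75.3), MS78 at 2 h (48.6), DMSO at 2 h (41.1) and MS78 at 4 h (40.6) had higher mean TPM.

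LIF encodes leukaemia inhibitory factor, an IL-6 family cytokine that binds LIFR and gp130. Its DMSO libraries stood at 12.3, 10.4 and 12.1 CPM at 2 h and 11.9, 10.5 and 11.9 CPM at 4 h. JQ1 libraries held 3.46, 1.83 and 5.15 CPM and then 2.45, 3.22 and 1.85 CPM, and TRAP-1-NegP libraries 6.75, 4.11 and 4.49 CPM and then 4.62, 2.37 and 4.27 CPM. All were below the DMSO libraries of their time. LIF fell 3.36-fold with JQ1 at 2 h (-1.75 ± 0.23, adjusted p = 1.62e-08) and 4.56-fold at 4 h (-2.19 ± 0.24, adjusted p = 3.52e-11). With TRAP-1-NegP it fell 2.27-fold at 2 h (-1.18 ± 0.22, adjusted p = 2.97e-05) and 3.06-fold at 4 h (adjusted p = 7.2e-08).

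TRAP-1-NegB and MS78 raised LIF, at levels near 24.8 ± 0.683 and 19.0 ± 1.45 CPM at 2 h. The TRAP-1-NegB libraries held 25.4, 24.1 and 25.1 CPM at 2 h and 19.7, 21.3 and 18.6 CPM at 4 h. MS78 libraries held 20.6, 17.9 and 18.4 CPM at 2 h and 19.4, 16.2 and 17.7 CPM at 4 h. No library of either compound overlapped DMSO. The rise was 2.14-fold with TRAP-1-NegB at 2 h (1.10 ± 0.21, adjusted p = 0.000108) and 1.74-fold at 4 h (0.80 ± 0.21, adjusted p = 0.0375). The 4 h call was lost without any 1 of the 6 libraries compared, with its lowest value without DMSO replicate 2 (0.74, adjusted p = 0.238). MS78 raised LIF 1.64-fold at 2 h (0.71 ± 0.21, adjusted p = 0.0123) and 1.56-fold at 4 h (0.64 ± 0.21, adjusted p = 0.0291). The MS78 calls were lost without DMSO replicate 2 at 2 h (0.65, adjusted p = 0.0639) and without DMSO replicate 2, DMSO replicate 3 or MS78 replicate 1 at 4 h (lowest value 0.58, adjusted p = 0.121). With length-scaled counts the 4 h calls were lost for both TRAP-1-NegB (0.77, adjusted p = 0.0847) and MS78 (0.60, adjusted p = 0.0583).

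TRAP1 libraries held 8.89, 6.97 and 6.92 CPM of LIF at 2 h and 7.97, 12 and 11.1 CPM at 4 h, so that the 4 h libraries overlapped DMSO. LIF fell 1.52-fold at 2 h (-0.61 ± 0.21, adjusted p = 0.0257), a call lost without DMSO replicate 1 or 3 or TRAP1 replicate 2 or 3 (smallest fall -0.54, adjusted p = 0.101). At 4 h the difference was -0.14 ± 0.21, adjusted p = 0.625, with a 95% interval of -0.57 to 0.29. In TPM the TRAP1 libraries at 4 h held 2.29, 3.38 and 3.17, all below those of DMSO (4.64, 3.80 and 4.36). The rise over DMSO that IL1A and IL1B showed with TRAP1 at 4 h was thus not detected for LIF.

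The group means of IL1A, IL1B and LIF followed each other closely. Over the 12 groups, the gene most like IL1B was LIF (Pearson's r = 0.970 of log2 CPM), followed by IL1A (0.951) and PRKX (0.950), a protein kinase gene. Most like LIF were MN1 (0.971), IL1B (0.970) and PRKX (0.959). Most like IL1A were IL1B (0.951), MDM2 (0.914), which encodes a ubiquitin ligase of p53, and TFG (0.914). TFG group means spanned only 151 to 179 CPM, against 30.6 to 126 CPM for IL1A, so a high correlation did not mean a change of similar size. These correlations describe 12 points that share libraries within a group and the DMSO background, and no test was made.

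**Figure D2:**
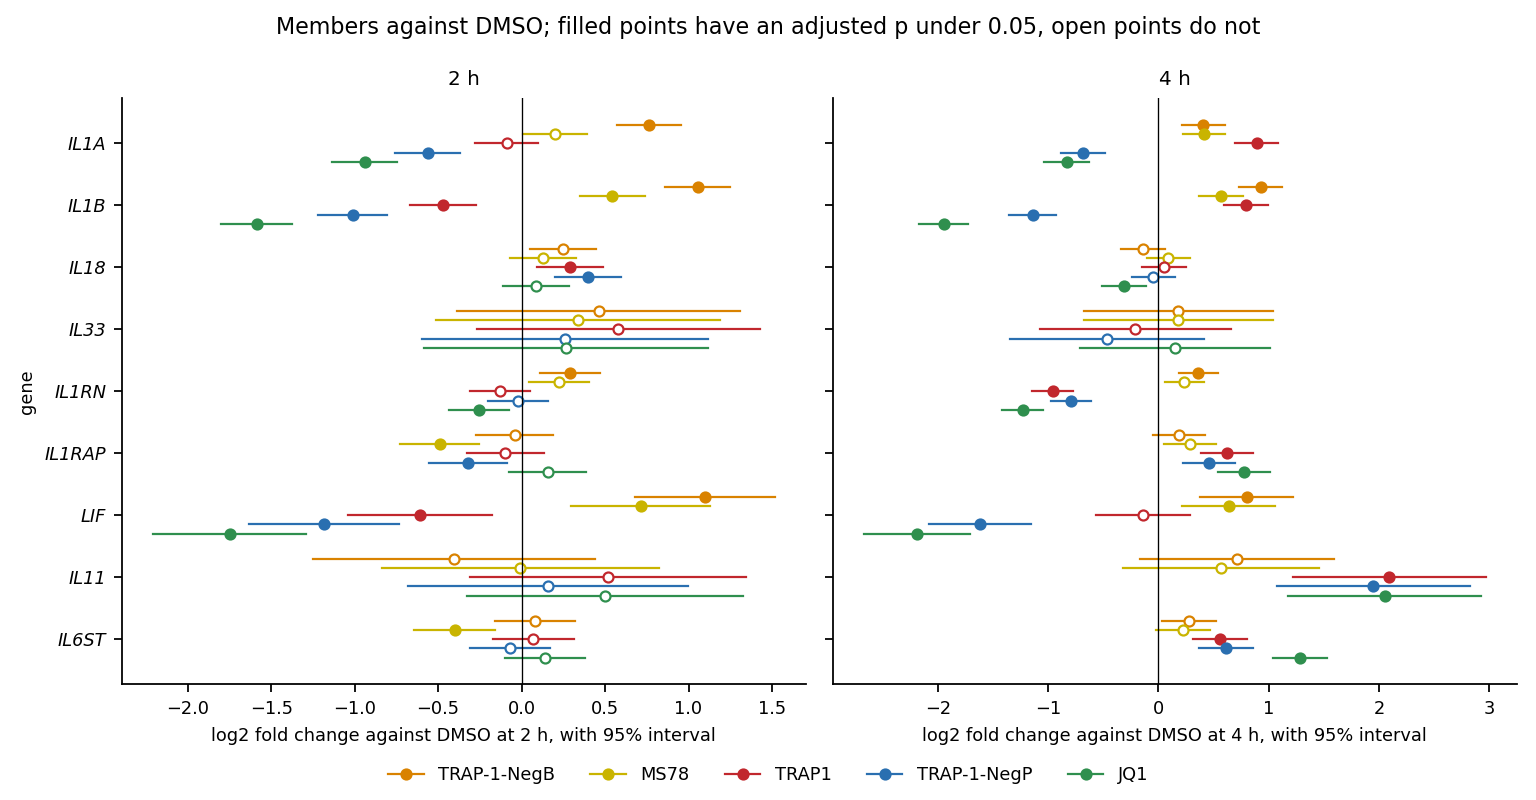
Log2 fold change against the DMSO libraries of the same time, with 95% intervals, for the 9 members tested, by compound and time. IL1B and LIF lie below 0 with JQ1 and TRAP-1-NegP and above 0 with TRAP-1-NegB and MS78 at both times, while IL1B with TRAP1 changes side between 2 and 4 h.

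IL1RN encodes the receptor antagonist, and its changes did not follow those of the agonist genes with TRAP1. The DMSO libraries stood at 62.4, 51.8 and 58.5 CPM at 2 h and 69.6, 67.2 and 59.6 CPM at 4 h. At 4 h TRAP1 libraries held 35.9, 27.9 and 37.5 CPM, TRAP-1-NegP libraries 34.8, 40.2 and 38.5 CPM and JQ1 libraries 29.3, 27.9 and 26.4 CPM. All 9 of these libraries lay below the DMSO libraries. IL1RN fell 1.94-fold with TRAP1 (-0.96 ± 0.092, adjusted p = 4.52e-13), 1.73-fold with TRAP-1-NegP (-0.79 ± 0.091, adjusted p = 2.62e-10) and 2.35-fold with JQ1 (-1.23 ± 0.093, adjusted p = 9.65e-17). Without TRAP1 replicate 1 the fall with TRAP1 was -1.0 (adjusted p = 8.72e-12).

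At 2 h IL1RN had moved little. TRAP1 libraries held 53.7, 51.2 and 52.8 CPM (-0.13 ± 0.090, adjusted p = 0.307) and TRAP-1-NegP libraries 55.0, 57.2 and 57.9 CPM (-0.022 ± 0.090, adjusted p = 0.896). JQ1 libraries held 48.8, 48.2 and 47.7 CPM, a difference of -0.26 ± 0.090 that passed the threshold (adjusted p = 0.0256) but did not without any 1 library other than DMSO replicate 2 (without DMSO replicate 1, -0.18, adjusted p = 0.197). TRAP-1-NegB libraries held 71.7, 69.1 and 70.5 CPM at 2 h and 85.0, 80.1 and 87.1 CPM at 4 h, all above DMSO. The rise at 2 h was 0.29 ± 0.089 (adjusted p = 0.0229), and at 4 h it was 0.36 ± 0.089 (adjusted p = 0.0221). These calls were lost without DMSO replicate 2 at 2 h (0.27, adjusted p = 0.0851) and, at 4 h, without DMSO replicate 2 or 3 or TRAP-1-NegB replicate 1 or 3 (smallest rise 0.30, adjusted p = 0.251). MS78 libraries held 65.1, 73.9 and 62.7 CPM at 2 h and 72.5, 82.9 and 75.7 CPM at 4 h, and neither difference was called (0.22 ± 0.089, adjusted p = 0.0808, and 0.23 ± 0.089, adjusted p = 0.0646). They were called without DMSO replicate 1 (0.30 at 2 h and 0.32 at 4 h), without MS78 replicate 3 at 2 h (0.28) and without MS78 replicate 1 at 4 h (0.31). With these libraries kept, DESeq2's Wald test called both (adjusted p = 0.0418 at 2 h and 0.0202 at 4 h). At 4 h edgeR's test did too with DESeq2 size factors (adjusted p = 0.046) or only the groups compared (adjusted p = 0.0248).

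Because agonist and antagonist compete for 1 receptor, the ratio of IL1B to IL1RN was computed in TPM for each library, a measure chosen after the values were seen and given without a test. With DMSO it was 0.999 ± 0.109 at 2 h and 0.717 ± 0.0646 at 4 h (mean ± SD, n = 3). TRAP1 libraries stood at 0.819, 0.752 and 0.773 at 2 h and at 2.12, 3.20 and 2.05 at 4 h. The 4 h ratio, 2.45 ± 0.643, was the highest group mean of the 12, and its lowest library exceeded every library of the other groups. TRAP-1-NegB followed at 1.69 ± 0.103 at 2 h and 1.06 ± 0.0465 at 4 h. MS78 gave 1.25 ± 0.0962 at 2 h and 0.899 ± 0.0608 at 4 h. The lowest ratios were those of JQ1, at 0.394 ± 0.0496 and 0.431 ± 0.0886, and TRAP-1-NegP, at 0.502 ± 0.0825 and 0.566 ± 0.0592. JQ1 and TRAP-1-NegP lowered both genes at 4 h, TRAP-1-NegB raised both, and TRAP1 at 4 h raised IL1B and lowered IL1RN.

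**Figure D3:**
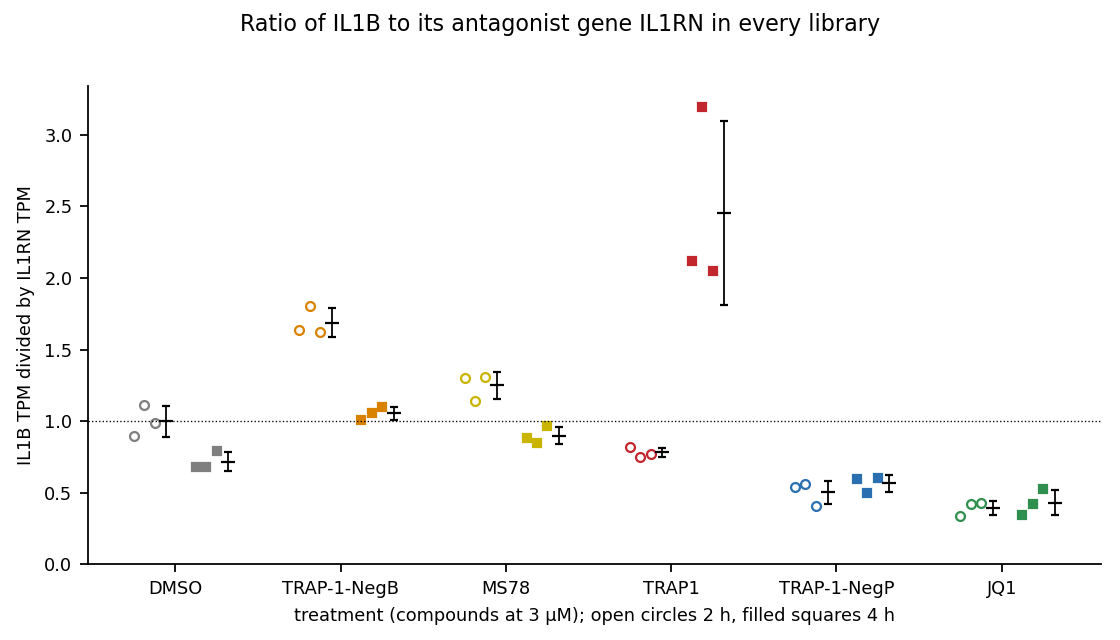
Ratio of IL1B to IL1RN TPM in each library, by treatment and time, with bars for group means ± SD. The 3 TRAP1 libraries at 4 h stand at 2.05 to 3.20, above all other libraries, and JQ1 and TRAP-1-NegP libraries are lowest.

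The level of IL1RN per length depends on which of its transcripts the reads were assigned to. Transcripts from the upstream start, which GENCODE places at 113117893 or 113117897 and so within the stretch printed above, held a median of 99.4% of IL1RN transcript TPM over the 36 libraries. Transcripts from the downstream start were above 0 in 5 libraries and reached at most 6.13%. In JQ1 libraries at 4 h, the transcripts with no matched start, 2 in number, had a summed share of 3.84% to 89.8%.

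IL18 and IL33, the other ligand genes of the IL-1 family, moved less. Over the 12 groups, mean levels of IL18 ran from 49.2 CPM (JQ1 at 4 h) to 66.4 CPM (TRAP-1-NegP at 2 h), and each group overlapped its neighbour in that order. IL18 rose with TRAP-1-NegP at 2 h, from 50.0, 52.3 and 48.6 to 66.5, 69.5 and 63.2 CPM (0.40 ± 0.099, adjusted p = 0.00111). It rose less with TRAP1 at 2 h (0.29 ± 0.098, adjusted p = 0.0196), a call lost without DMSO replicate 3 or TRAP1 replicate 3 (smallest value 0.23, adjusted p = 0.127). With JQ1 at 4 h it fell (-0.31 ± 0.099, adjusted p = 0.0068), which was lost without JQ1 replicate 3 (-0.25, adjusted p = 0.0564). IL33, a nuclear alarmin, stood at 1.05 to 3.47 CPM in all libraries, and no difference against DMSO was called for any compound. At these counts the 95% intervals were wide, for example -1.08 to 0.66 with TRAP1 at 4 h.

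**Figure D4:**
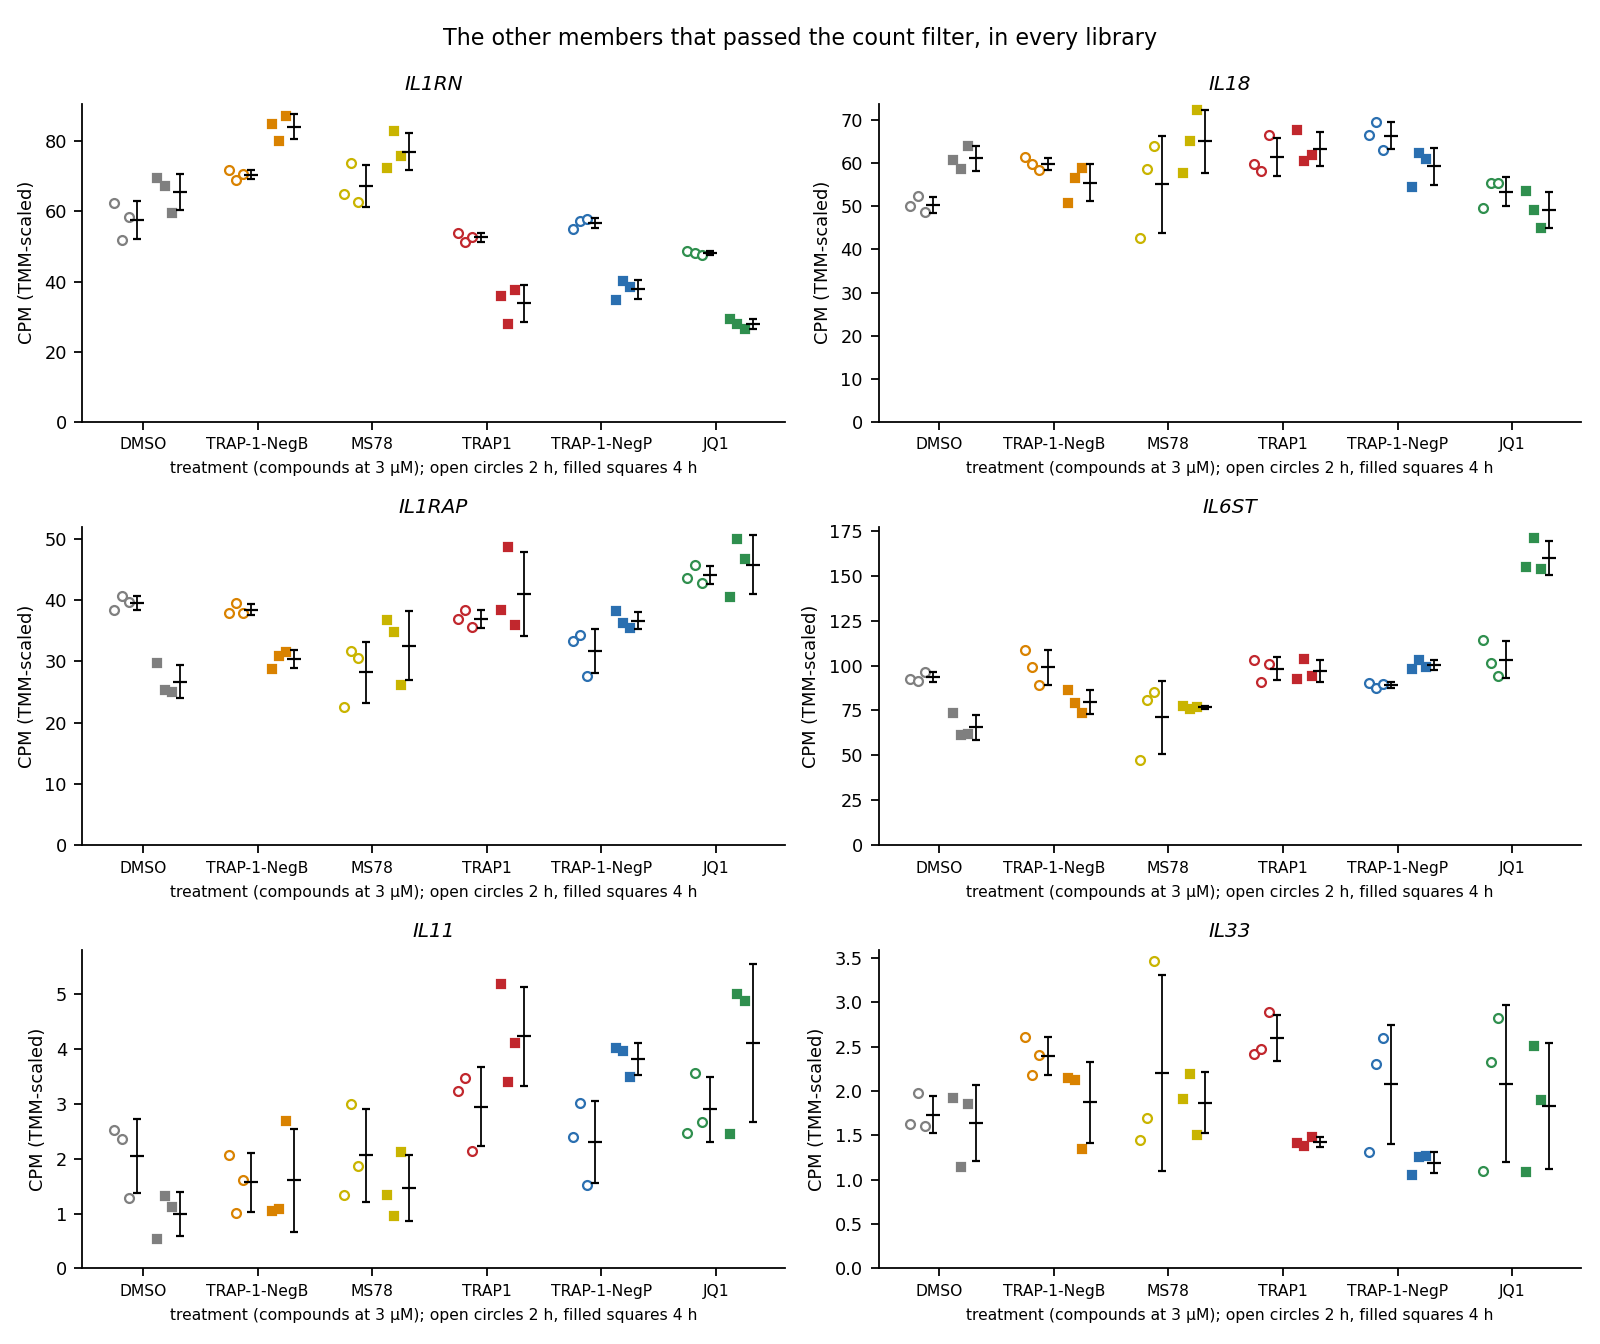
CPM of the other 6 tested members in each library, by treatment and time, with bars for group means ± SD. IL1RN is lowest with JQ1, TRAP1 and TRAP-1-NegP at 4 h, and IL6ST is highest with JQ1 at 4 h, at 154 to 171 CPM.

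The receptor subunit genes IL1RAP and IL6ST rose with JQ1, TRAP-1-NegP and TRAP1 at 4 h. IL1RAP libraries stood at 29.8, 25.4 and 24.9 CPM with DMSO at 4 h, 40.5, 50.0 and 46.8 CPM with JQ1, 38.2, 36.3 and 35.5 CPM with TRAP-1-NegP and 38.5, 48.8 and 35.9 CPM with TRAP1. All 9 libraries of the compounds were above DMSO in CPM. IL1RAP rose 1.71-fold with JQ1 (0.78 ± 0.12, adjusted p = 1.4e-07), 1.37-fold with TRAP-1-NegP (0.46 ± 0.12, adjusted p = 0.00144) and 1.54-fold with TRAP1 (0.62 ± 0.12, adjusted p = 1.34e-05). These 4 h levels were set against a DMSO group that had itself fallen from 39.6 ± 1.18 CPM at 2 h. The TRAP1 level was 37.0 ± 1.46 CPM at 2 h and 41.0 ± 6.80 CPM at 4 h. In TPM that level went from 12.1 ± 0.419 to 9.86 ± 1.75, and that of DMSO from 13.9 ± 0.557 to 8.17 ± 1.17. At 2 h IL1RAP fell with MS78 (-0.49 ± 0.12, adjusted p = 0.00183; without replicate 1, -0.35, adjusted p = 0.0396) and with TRAP-1-NegP (-0.32 ± 0.12, adjusted p = 0.0307). The latter call was lost without DMSO replicate 2 or 3 or TRAP-1-NegP replicate 3 (smallest fall -0.23, adjusted p = 0.22).

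IL6ST, the shared signal-transducing subunit of the IL-6 family, stood at 73.8, 61.1 and 62.2 CPM with DMSO at 4 h. JQ1 libraries held 155, 171 and 154 CPM, TRAP-1-NegP libraries 98.1, 103 and 99.4 CPM and TRAP1 libraries 92.7, 104 and 94.4 CPM. The JQ1 libraries were above every other library of the series, and none of the 9 overlapped DMSO. IL6ST rose 2.43-fold with JQ1 (1.28 ± 0.12, adjusted p = 5.22e-11), 1.53-fold with TRAP-1-NegP (0.61 ± 0.12, adjusted p = 0.000104) and 1.48-fold with TRAP1 (0.56 ± 0.12, adjusted p = 0.000198). As for IL1RAP, the TRAP1 level in CPM hardly moved between the times (98.3 ± 6.32 and 97.0 ± 5.97). DMSO went from 93.6 ± 2.67 to 65.7 ± 7.03 CPM. In TPM both fell, TRAP1 from 15.5 ± 0.996 to 11.5 ± 0.710 and DMSO from 15.7 ± 0.459 to 9.97 ± 1.37. MS78 libraries at 2 h held 47.6, 80.6 and 85.3 CPM, and the fall there (-0.40 ± 0.12, adjusted p = 0.018) rested on replicate 1, the library that stood apart: without it the difference was -0.17 (adjusted p = 0.173). That fall was also lost without any 1 DMSO library, with adjusted p up to 0.112.

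IL11, an IL-6 family ligand that signals through IL11RA and gp130, was low in every library but rose at 4 h with TRAP1, JQ1 and TRAP-1-NegP. DMSO libraries at 4 h held 0.543, 1.31 and 1.12 CPM. TRAP1 libraries held 5.20, 3.40 and 4.11 CPM, JQ1 libraries 2.45, 5.01 and 4.89 CPM and TRAP-1-NegP libraries 4.02, 3.98 and 3.49 CPM, none overlapping DMSO. IL11 rose 4.26-fold with TRAP1 (2.09 ± 0.44, adjusted p = 6.22e-05), 4.14-fold with JQ1 (2.05 ± 0.44, adjusted p = 7.77e-05) and 3.86-fold with TRAP-1-NegP (1.95 ± 0.44, adjusted p = 0.000257). The DMSO libraries at 2 h had held 2.53, 2.35 and 1.28 CPM. IL6 was listed at 0 counts in every JQ1 library and in every TRAP1 library at 2 h. It was at 0 in at least 1 library of each group, so no change in IL6 could be measured at this depth, and it was not called in any comparison without the filter either (adjusted p of 0.211 or more).

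IL1A, IL1B and LIF were higher with TRAP1 than with TRAP-1-NegP at 4 h, and no other member was called between them. There were 12 pairs of compound and time compared, and p-values were adjusted over all genes within each. At 2 h 2 of 9 members were called, beside 0.801% of all genes: IL1A (0.47 ± 0.097, adjusted p = 0.00322) and IL1B (0.54 ± 0.10, adjusted p = 0.00119) were higher with TRAP1. Both calls were lost without TRAP-1-NegP replicate 3 (0.44, adjusted p = 0.052, and 0.42, adjusted p = 0.0821). LIF differed by 0.57 ± 0.23, adjusted p = 0.293 (95% interval 0.12 to 1.03). At 4 h 3 members were called, beside 15.3% of all genes, all higher with TRAP1. IL1A was 2.97-fold higher (adjusted p = 1.08e-18), IL1B 3.81-fold higher (adjusted p = 2.23e-21) and LIF 2.78-fold higher (1.47 ± 0.23, adjusted p = 2.85e-06).

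For the members not called between TRAP1 and TRAP-1-NegP at 4 h the intervals were as follows. IL1RN differed by -0.17 ± 0.093 (95% interval -0.35 to 0.021, adjusted p = 0.248). For IL6ST the difference was -0.047 ± 0.12 (-0.29 to 0.19, adjusted p = 0.859), for IL1RAP 0.16 ± 0.12 (-0.070 to 0.40, adjusted p = 0.391) and for IL18 0.096 ± 0.098 (-0.10 to 0.29, adjusted p = 0.587). The intervals of IL11 and IL33 were wide, at -0.66 to 0.95 (adjusted p = 0.874) and -0.63 to 1.14 (adjusted p = 0.776). A p above the threshold does not show that the compounds act alike on these genes; the intervals bound how far they could differ here.

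Against TRAP-1-NegB, TRAP1 gave lower IL-1 agonist and LIF levels at 2 h. There 4 members were called, beside 20.7% of all genes: IL1A (-0.85 ± 0.095), IL1B (-1.52 ± 0.10), LIF (-1.71 ± 0.21) and IL1RN (-0.42 ± 0.090). At 4 h 5 members were called, beside 46.1%. IL1A (0.48 ± 0.095, adjusted p = 2.45e-05), IL1RAP (0.44 ± 0.12, adjusted p = 0.00157) and IL11 (1.38 ± 0.42, adjusted p = 0.00497) were higher with TRAP1, and LIF (-0.94 ± 0.21, adjusted p = 0.00018) and IL1RN (-1.32 ± 0.092, adjusted p = 4.82e-18) were lower. The call of IL1RAP was lost without TRAP1 replicate 2 (0.29, adjusted p = 0.0627). IL1B was not called (-0.14 ± 0.097, adjusted p = 0.264), with a 95% interval of -0.33 to 0.059. In TPM its TRAP1 libraries at 4 h (54.5, 63.0 and 52.6) all lay below those of TRAP-1-NegB (75.8, 75.2 and 83.3). IL1A libraries overlapped in TPM (39.7 ± 3.34 with TRAP1 and 35.7 ± 0.390 with TRAP-1-NegB). All 5 members called at 4 h kept their direction in mean TPM. IL6ST lay at the threshold (0.28 ± 0.12, adjusted p = 0.0504) and was called without TRAP-1-NegB replicate 1 (0.35, adjusted p = 0.0354). DESeq2's Wald test (0.31, adjusted p = 0.0423) called it too, as did the stricter filter (0.29, adjusted p = 0.0367) and other alternatives. Its mean TPM at 4 h was 11.5 with TRAP1 and 11.9 with TRAP-1-NegB.

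TRAP1 and JQ1 differed at 2 h in 3 members, beside 1.99% of all genes. IL1A (0.85 ± 0.098, adjusted p = 9.97e-09), IL1B (1.12 ± 0.11, adjusted p = 4.1e-11) and LIF (1.14 ± 0.23, adjusted p = 0.0018) were higher with TRAP1. LIF was lost without JQ1 replicate 2 (0.82, adjusted p = 0.0823). At 4 h 6 members were called, beside 27.4%. IL1B was 6.67-fold higher with TRAP1 (2.74 ± 0.11, adjusted p = 6.72e-27), IL1A 3.30-fold (1.72 ± 0.10, adjusted p = 1.87e-20) and LIF 4.13-fold (2.05 ± 0.24, adjusted p = 1.73e-09). IL18 (0.37 ± 0.099) was also higher, and IL6ST was lower (-0.72 ± 0.12, adjusted p = 1.52e-05). IL1RN was called with overlapping libraries (0.27 ± 0.095, adjusted p = 0.025), and the call was lost without TRAP1 replicate 1 or 3 or JQ1 replicate 2 or 3 (lowest value 0.20, adjusted p = 0.15). Its mean TPM at 4 h was 23.7 with TRAP1 and 24.3 with JQ1.

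TRAP1 against MS78 gave 6 calls at 2 h, beside 22.6% of all genes, and 6 at 4 h, beside 49.3%. At 2 h IL1A (-0.29), IL1B (-1.01), LIF (-1.32) and IL1RN (-0.35) were lower with TRAP1 on the log2 scale, and IL1RAP (0.39) and IL6ST (0.47) were higher. Without MS78 replicate 1, which stood apart, IL1RAP was 0.25 (adjusted p = 0.141) and IL6ST was 0.25 (adjusted p = 0.0209). The call of IL1A was lost without MS78 replicate 3 (-0.11, adjusted p = 0.475) or TRAP1 replicate 2. At 4 h IL1RN (-1.19) and LIF (-0.78) were lower with TRAP1, and IL1A (0.48), IL1RAP (0.34), IL11 (1.52) and IL6ST (0.34) were higher. The 4 h call of IL6ST was lost without any 1 of the 6 libraries (adjusted p up to 0.152), and that of IL1RAP without TRAP1 replicate 2 (0.17, adjusted p = 0.291) or MS78 replicate 3. IL1B differed by 0.22 ± 0.098, adjusted p = 0.051.

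Of the compounds that lowered IL1B at both times, JQ1 gave lower IL1B than TRAP-1-NegP at both. At 2 h 4 members were called, beside 12.9% of all genes: IL1A (-0.38), IL1B (-0.58 ± 0.11, adjusted p = 0.000181) and IL18 (-0.31) were lower with JQ1 and IL1RAP (0.48) was higher. The calls of IL1A and IL18 were lost without JQ1 replicate 2 (-0.30, adjusted p = 0.0833, and -0.34, adjusted p = 0.0516), and IL18 also without JQ1 replicate 1 or TRAP-1-NegP replicate 1 or 2. IL1RAP was lost without TRAP-1-NegP replicate 3 (0.38, adjusted p = 0.0535). At 4 h 5 were called, beside 25.7%: IL1B (-0.81 ± 0.11, adjusted p = 5.14e-07), IL1RN (-0.44) and IL18 (-0.27) lower, and IL6ST (0.67 ± 0.12, adjusted p = 6.84e-05) and IL1RAP (0.32) higher with JQ1. The call of IL18 there was lost without JQ1 replicate 2 or 3 or TRAP-1-NegP replicate 2 or 3, and that of IL1RAP without any 1 library other than JQ1 replicate 1. Without JQ1 replicate 3 the values were -0.21 (adjusted p = 0.175) for IL18 and 0.30 (adjusted p = 0.0859) for IL1RAP. LIF was not called at 2 h (-0.57 ± 0.24, adjusted p = 0.116) or at 4 h (-0.57 ± 0.26, adjusted p = 0.0926). It was called without JQ1 replicate 3 at 2 h (-0.97, adjusted p = 0.00911) and without JQ1 replicate 2 (-0.80, adjusted p = 0.0465) or TRAP-1-NegP replicate 2 at 4 h.

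Of the compounds that raised IL1B at both times, MS78 gave lower IL1B than TRAP-1-NegB. At 2 h 4 members were called, beside 3.17% of all genes, all lower with MS78: IL1A (-0.56 ± 0.094, adjusted p = 0.00031), IL1B (-0.51 ± 0.096, adjusted p = 0.00203), IL1RAP (-0.45) and IL6ST (-0.48). Without MS78 replicate 1 the calls of IL1RAP (-0.31, adjusted p = 0.634) and IL6ST (-0.25, adjusted p = 0.423) were lost, as they also were without TRAP-1-NegB replicate 1 or 2. At 4 h 1 member was called, beside 8.93%: IL1B (-0.36 ± 0.097, adjusted p = 0.0111), lost without MS78 replicate 1 (-0.28, adjusted p = 0.138) or 2 or TRAP-1-NegB replicate 3. LIF differed by -0.39 ± 0.20 at 2 h (95% interval -0.80 to 0.023) and -0.16 ± 0.20 at 4 h (-0.57 to 0.25).

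TRAP1 was also set beside the changes with TRAP-1-NegP and with TRAP-1-NegB added together, all against the same DMSO libraries. At 2 h the changes of IL1B were 1.05 with TRAP-1-NegB and -1.01 with TRAP-1-NegP, which sum to 0.042, against -0.47 with TRAP1. IL1B was the 1 member called as different from the sum at 2 h (-0.51 ± 0.14, adjusted p = 0.0209), beside 5.00% of all genes. That call was lost without TRAP-1-NegP replicate 1 or 2 or TRAP1 replicate 2 (smallest difference -0.42, adjusted p = 0.113). At 4 h 3 members were called, beside 6.97%. IL1A with TRAP1 exceeded the sum of -0.27 by 1.16 ± 0.14, adjusted p = 6.23e-09, and IL1B exceeded the sum of -0.21 by 1.00 ± 0.14, adjusted p = 8.14e-07. IL1RN lay below its sum of -0.43 (-0.53 ± 0.13, adjusted p = 0.00537). LIF differed from its sum of -0.82 by 0.67 ± 0.31, adjusted p = 0.208 (95% interval 0.053 to 1.30). The 3 calls at 4 h held without TRAP1 replicate 1 (1.13 for IL1A, 1.04 for IL1B and -0.58 for IL1RN).

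**Figure D5:**
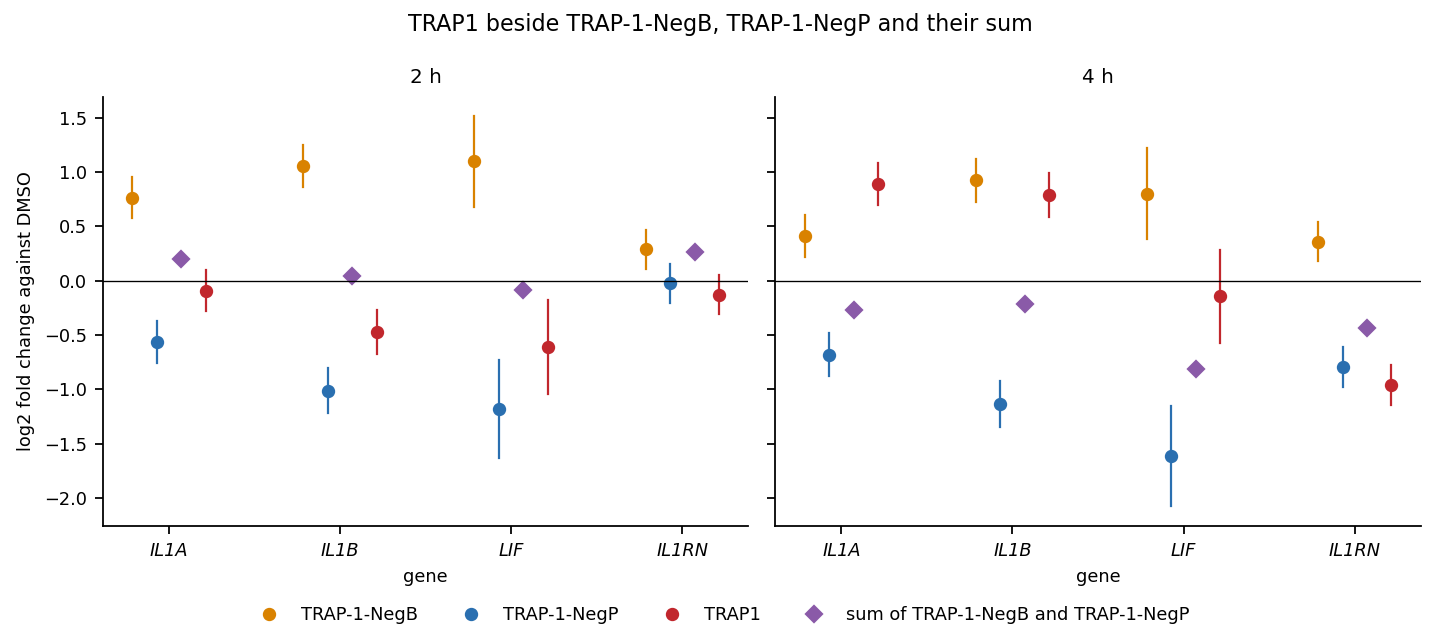
Log2 fold change against DMSO of the same time for IL1A, IL1B, LIF and IL1RN with TRAP-1-NegB, TRAP-1-NegP and TRAP1 (points with 95% intervals), with diamonds for TRAP-1-NegP and TRAP-1-NegB added together. At 4 h TRAP1 lies above the sum for IL1A and IL1B and below it for IL1RN.

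The change against DMSO differed between 2 and 4 h for several members, tested as the difference of the changes. With TRAP1 6 members were called, beside 22.0% of all genes. IL1B differed by 1.26 ± 0.14, adjusted p = 8.07e-10 and IL1A by 0.98 ± 0.14, adjusted p = 1.43e-07, both toward a higher level relative to DMSO at 4 h. IL1RN differed by -0.83 ± 0.13, adjusted p = 1.82e-06. With TRAP-1-NegP 5 members were called, beside 23.2%, and with JQ1 5, beside 26.0%; in both, IL1A, IL1B and LIF were not among them. IL1B, for example, differed by -0.13 ± 0.15, adjusted p = 0.606 with TRAP-1-NegP and by -0.36 ± 0.15, adjusted p = 0.0753 with JQ1, where it was called without JQ1 2 h replicate 1 (-0.46, adjusted p = 0.0259) or JQ1 4 h replicate 3. With MS78 2 were called, beside 15.2%, and with TRAP-1-NegB 0, beside 2.48%. In that last comparison, 2 members had an unadjusted p below 0.05 by edgeR's quasi-likelihood test (IL1A, -0.36, and IL18, -0.39), and DESeq2's Wald test called 0.

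The 2 families' other genes were read from a list of 87 further symbols, of which 71 were tested: 39 of IL-1 signalling (receptors, processing, MYD88 and IRAK steps) and 32 of IL-6 signalling (ligands, receptors, JAK and STAT steps, feedback). With JQ1 at 4 h the lists moved in different directions. Of the IL-6 list 16 genes rose and 3 fell (median log2 fold change 0.41), and of the IL-1 list 7 rose and 17 fell (median -0.31), beside a median of -0.012 over all genes. Over both lists 60.6% were called, beside 48.9% of all genes. With TRAP1 at 4 h the counts were 10 up and 6 down for the IL-6 list and 5 up and 14 down for the IL-1 list (medians 0.091 and -0.18, against -0.022 over all genes). That was 49.3% of both lists, near the 46.7% of all genes called. TRAP-1-NegP at 4 h gave 10 up and 4 down, and 4 up and 11 down (medians 0.12 and -0.20, against -0.015), or 40.8% of both lists, near the 37.4% of all genes. TRAP-1-NegB at 4 h gave 0 calls over both lists by edgeR's quasi-likelihood test, where 12 of the 71 genes had an unadjusted p below 0.05, and 0 by DESeq2's Wald test. MS78 at 4 h gave 7 rises and 9 falls over both (22.5%, beside 15.3% of all genes). The rises numbered 4 without DMSO replicate 2 and 2 without DMSO replicate 3, and the falls 5 without MS78 replicate 3.

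Feedback inhibitors of JAK and STAT signalling were among the genes that rose at 2 h. SOCS1 went from 3.72 CPM with DMSO to 13.1 CPM with TRAP1 (1.81, adjusted p = 3.76e-08), 13.3 CPM with TRAP-1-NegP (1.83) and 17.0 CPM with JQ1 (2.19). SOCS3 rose by 0.90, 0.87 and 1.46 on the log2 scale with the same compounds. CLCF1, another ligand that signals through gp130, fell with TRAP1 (-1.05 at 2 h and -1.85 at 4 h), TRAP-1-NegP (-1.35 and -1.48) and JQ1 (-1.62 and -2.06). LIFR, the LIF receptor, rose at 4 h with JQ1 (1.66, adjusted p = 2.39e-15), TRAP1 (1.04), TRAP-1-NegP (0.93) and MS78 (0.51).

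On the IL-1 side, TRAF6, a ubiquitin ligase downstream of the IRAK kinases, fell at 2 h with TRAP1 (-1.21), TRAP-1-NegP (-1.45), JQ1 (-1.13) and MS78 (-0.45). MYD88, the receptor's adaptor, fell with TRAP1 (-0.48 at 2 h and -0.71 at 4 h), TRAP-1-NegP (-0.41 and -0.38) and JQ1 (-0.34 and -0.51), and with TRAP-1-NegB at 2 h (-0.24). It was lower with TRAP1 than with TRAP-1-NegP at 4 h (-0.32, adjusted p = 0.00169). MAP2K3, a kinase of the p38 pathway, rose at 4 h with TRAP1 (0.65), TRAP-1-NegP (0.66) and JQ1 (0.70). PELI1, a ubiquitin ligase that acts on IRAK1, rose with them too (1.30, 1.28 and 1.66). IL1RL1, the IL-33 receptor, fell at 4 h with TRAP1 (-0.55), TRAP-1-NegP (-0.57) and JQ1 (-0.31). Between TRAP1 and TRAP-1-NegP at 4 h 3 genes of both lists were higher with TRAP1 and 9 lower (16.9%, beside 15.3% of all genes), the highest fold change among them being that of the inflammasome sensor gene NLRP1 (0.57, adjusted p = 0.000199). The 9 became 4 without TRAP1 replicate 1 or TRAP-1-NegP replicate 2, 5 without TRAP1 replicate 2 or TRAP-1-NegP replicate 3, and 4 with only the 6 libraries compared in the fit.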

How the data were processed

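Polyadenylated RNA of 36 BxPC-3 libraries (12 groups of 3) was sequenced in pairs of 150-base reads. The authors quantified genes with Salmon 1.10.3 in nf-core/rnaseq 3.18.0 against hg38, per the submitters' processing notes and the series' design text. Which annotation release was used is not stated in these sources. The deposited estimated counts per gene were rounded to whole numbers and used for all tests, and the deposited TPM values, which are per transcript length, were used to compare levels between genes and for transcript shares. The authors' length-scaled estimated counts served as an alternative.

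From these counts, edgeR 4.0.16 (R 4.3.3, limma 3.58.1) gave TMM factors, and filterByExpr with a minimum count of 10 kept 14988 of 29744 genes. A quasi-likelihood model with 1 mean per group over all 36 libraries (common biological coefficient of variation 0.135) was tested in 30 comparisons, each with Benjamini-Hochberg adjustment over all genes tested and a threshold of 0.05. CPM values in the text are scaled by TMM factors. Genes of like pattern were the 3 with the highest Pearson correlation of group means of log2 CPM (prior count 2) among genes with a mean of at least 5 CPM. Named genes were the 10 members and some of 87 further pathway symbols. Of the latter, at most 3 per direction were taken, those with the smallest adjusted p among those called in a comparison. IL1R1 and IL6R were named outside that rule, as receptor genes of the ligands, for their level with DMSO. The members and the lists were chosen with earlier results of these data known. The procedure was tested on simulated data.

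Alternatives were DESeq2 1.42.0 size factors and its Wald test, length-scaled counts, testing without a filter or with a stricter one (mean of at least 1 CPM in 1 group, 10 counts in 3 libraries), a fit to only the groups compared, the replicate number as a block, and each library left out. Leaving out both libraries that stood apart was added after seeing the data. Library totals of 15288688 to 26608325 estimated counts limit the precision for IL6, IL11 and IL33. The replicate numbers did not pair the libraries: over 30 pairs of same-numbered libraries, deviations from group means correlated at -0.0463 to 0.0644. Promoter stretches of 250 bases came from RefSeq (GRCh38.p14). Figures were drawn with matplotlib 3.10.9 in Python 3.11.15.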

Additional observations from a re-analysis of the deposited data

Results flagged for a closer look

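The change against DMSO differed between 2 and 4 h, by the test of the difference itself, in 18 cases over 7 members, given here as log2 differences (4 h minus 2 h) with edgeR's adjusted p. With TRAP1, IL1B differed by 1.26 (adjusted p = 8.07e-10), IL1A by 0.98 (1.43e-07), IL1RN by -0.83 (1.82e-06), IL1RAP by 0.72 (0.000853), IL6ST by 0.49 (0.033) and IL11 by 1.57 (0.0492). Of the 5 members with a positive difference, IL1A and IL1B had every TRAP1 library at 4 h above every TRAP1 library at 2 h in CPM. IL1A means went from 69.6 ± 2.27 to 101 ± 6.52 CPM and IL1B means from 34.1 ± 2.52 to 66.9 ± 6.23 CPM. For IL1RAP, IL6ST and IL11 the TRAP1 libraries of both times overlapped in CPM, and IL1RAP and IL6ST had fallen between the DMSO groups. In TPM the IL1A libraries with TRAP1 overlapped between the times, so the rise of IL1A between TRAP1 groups depended on the measure. Every IL1B library with TRAP1 at 4 h stayed above those at 2 h in TPM. The IL6ST libraries with TRAP1 at 4 h all lay below those at 2 h in TPM.

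With TRAP-1-NegP the differences were -0.77 for IL1RN (6.91e-06), 0.78 for IL1RAP (0.000325), 0.68 for IL6ST (0.003), -0.44 for IL18 (0.0152) and 1.79 for IL11 (0.0238). With JQ1 they were -0.98 for IL1RN (4.57e-08), 1.14 for IL6ST (3.26e-06), 0.62 for IL1RAP (0.00303), -0.40 for IL18 (0.0271) and 1.55 for IL11 (0.0464). With MS78 they were 0.78 for IL1RAP (0.000906) and 0.63 for IL6ST (0.0106), both in a comparison that holds MS78 2 h replicate 1, the library that stood apart (without it, 0.63, adjusted p = 0.00566, and 0.40, adjusted p = 0.012). All of these comparisons share the DMSO libraries.

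Several of the smaller differences depended on single libraries. IL11 with TRAP1 was no longer called without TRAP1 4 h replicate 1 (1.41, adjusted p = 0.105) and without most other single libraries compared, with the lowest value without DMSO 4 h replicate 1 (1.25). IL6ST with TRAP1 was lost without TRAP1 4 h replicate 1 (0.54, adjusted p = 0.0607) and without most others. IL11 was likewise lost without DMSO 4 h replicate 1 with TRAP-1-NegP (1.5, adjusted p = 0.081) and JQ1 (1.25, adjusted p = 0.143). IL18 was lost without TRAP-1-NegP 4 h replicate 1 (-0.37, adjusted p = 0.0765) and, with JQ1, without JQ1 4 h replicate 3 (-0.34, adjusted p = 0.0883) or any of 4 other libraries.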

How the results depend on the processing

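Of 270 results (9 members in 30 comparisons), 124 were called, 81 of these kept call and direction under every alternative run, 43 lost the call under at least 1, and 25 others gained one; no called result reversed, and a change of sign between values not called was not counted. The calls with TRAP1, TRAP-1-NegP and TRAP1 against TRAP-1-NegP at 4 h, and those of TRAP1 against the summed changes at 4 h, kept their numbers (6, 7, 3 and 3). Another scaling, DESeq2 size factors, moved the median of all genes by at most 0.0243 on the log2 scale. Both scalings take most genes as unchanged, and every alternative used 1 of them. Neither the medians nor the lack of reversals can therefore show whether results depend on that assumption. In mean TPM some called differences had the opposite sign, such as IL6ST with TRAP1 against MS78 at 4 h (11.5 and 13.0). In TPM, TRAP1 libraries at 4 h overlapped DMSO for IL6ST (11.5 ± 0.710 and 9.97 ± 1.37) and IL1RAP (9.86 ± 1.75 and 8.17 ± 1.17). TRAP-1-NegP libraries at 4 h (10.2 ± 0.878) also overlapped DMSO for IL1RAP in TPM. In CPM none of these overlapped DMSO. The fit with the replicate number as a block changed no member's call: it gave 6 members with TRAP1 and 7 with TRAP-1-NegP at 4 h.

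Fitting only the groups compared gave 2 members for MS78 against DMSO at 2 h, 5 at 4 h, 3 for TRAP1 against MS78 at 2 h, 0 and 2 for MS78 against TRAP-1-NegB at 2 and 4 h, 2 and 1 for the change between times with TRAP-1-NegB and MS78, and 4 for TRAP1 against the summed changes at 2 h. That last count was 2 with DESeq2 size factors, DESeq2's Wald test or the stricter filter. Leaving out both libraries that stood apart gave 2 for MS78 against TRAP-1-NegB at 2 h, and length-scaled counts gave 3 for JQ1 against TRAP-1-NegP at 4 h. The cause was not tested, beyond fewer libraries in the smaller fits.

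With 1 library left out, counts ran from 1 to 3 for TRAP1 against DMSO at 2 h, 1 to 2 for TRAP-1-NegB at 4 h, and 2 to 5 for MS78 at 2 h and at 4 h. They ran from 0 to 2 for TRAP1 against TRAP-1-NegP at 2 h, 2 to 5 and 3 to 5 for JQ1 against TRAP-1-NegP at 2 and 4 h, and 2 to 4 and 0 to 1 for MS78 against TRAP-1-NegB. They ran from 3 to 4 for DMSO between times, 3 to 5 for the change between times with JQ1 and 0 to 2 for TRAP1 against the summed changes at 2 h. Low counts limit IL11, IL33 and IL6.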
